A study of Mus musculus with 15 samples.

Results

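The sex differences that remained in mouse liver without estrogen receptor alpha were examined by comparing 5 ESR1KO females (FKO) with 4 ESR1KO males (MKO), 9 of the 15 mice of the series. The comparison was made across the 17117 genes on chromosomes 1 to 19 that had enough reads to be tested, out of 17655 tested in all. The 6 other mice, 3 wild type females (FWT) and 3 wild type males (MWT), show the size of the same sex difference when the receptor is present. All mice were 8 weeks old and of the line B6N(Cg)-Esr1tm4.2Ksk/J, and the groups follow their source labels. The knockout is global: a deleted exon of *Esr1* leaves every tissue without the receptor, and the study describes infertility and high testosterone in mutants of both sexes, so direct effects in liver and effects of altered gonads and hormones cannot be told apart. FKO and MKO mice still differ in sex chromosomes and gonads. Each library came from 1 liver, was depleted of ribosomal RNA, and held between 27799061 and 78624766 counts in the knockout mice.

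The liver is among the most sexually dimorphic organs outside the reproductive tract. In mice, many of its sex-biased genes follow the pattern of pituitary growth hormone, which reaches hepatocytes in pulses in males and more continuously in females and acts through the transcription factor STAT5B. Sex steroids shape that pattern and also act on the liver itself, estrogens through ESR1. The comparison of FKO with MKO livers asks which dimorphism is left once ESR1 is gone.

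*Esr1* itself read 19.7, 13.9, 11.7, 9.67 and 10.7 CPM (counts scaled to a common library total, with TMM factors) in the FKO mice and 16.1, 12.5, 8.22 and 10.5 CPM in the MKO mice. The wild type females lay between 74.7 and 88.2 CPM and the wild type males between 25.04 and 52.0 CPM, so every knockout mouse was below every wild type mouse. The sexes also matched their labels. *Xist* lay between 448 and 597 CPM in FKO and at no more than 0.0931 CPM in MKO, and *Ddx3y* lay between 74.4 and 90.0 CPM in MKO and had no counts in FKO. The sum of 13 hepatocyte markers overlapped between the sexes, with 114905 to 135925 CPM in FKO and 119087 to 131217 CPM in MKO.

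Across the autosomes, 34 genes passed an adjusted p of 0.05 (edgeR's quasi-likelihood test, Benjamini-Hochberg), which is 0.199% of the genes tested. Of these, 22 (0.129%) were higher in FKO and 12 (0.0701%) were higher in MKO. Under the study's fold minimum (1.5 on the log2 scale), 16 genes remained (0.0935%), 14 of them higher in FKO. The p-values were adjusted over all 17655 genes tested, those on X and Y included. Adjusted over autosomal genes alone, 22 of the 34 passed, 14 higher in FKO and 8 higher in MKO. The calls lost were those with the highest p, among them *Clstn3*, *Acsm2*, *Gpr153*, *Ido2*, *Gbp3*, *Gbp6* and *Slfn2*. In wild type mice, the main test, adjusted over all genes tested, called 824 autosomal genes (4.81%). The difference between the 2 sex differences, the interaction of sex and genotype, passed the threshold for 330 genes (1.93%). Cytochrome P450 genes of the *Cyp2* families led the list of genes higher in FKO, and the genes higher in MKO had smaller differences.

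All 34 called genes had CPM values that did not overlap between the 5 FKO and 4 MKO mice. That was also true of 5.13% of all autosomal genes tested, 428 with FKO above and 450 with MKO above. Without adjustment, 17.5% of the genes had p under 0.05, 1616 higher in FKO and 1380 higher in MKO. The number of called genes depended on single mice. It was 16 without FKO1, 21 without FKO2, 69 without FKO3, 63 without FKO4, 94 without FKO5, 16 without MKO1, 14 without MKO3 and 15 without MKO4.

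Under all 23 alternatives, each mouse left out in turn included, 9 genes passed the threshold, among them *Cyp2c40*, *Cyp2c69*, *Cyp2c68*, *Cyp2b9*, *Cyp2a4*, *A1bg*, *Slc22a26* and *Mup-ps20*. The other 25 lost the call under at least 1 of them, and none of the 34 turned its direction. When only the 9 knockout libraries entered the fit, 15 autosomal genes were called, 12 of them among the 34. Scaling by total counts alone gave 56 calls and a split of 47 higher in FKO to 9 higher in MKO. The split was 31 to 38 without FKO3, 50 to 44 without FKO5 and 230 to 200 with DESeq2, so which sex had more called genes was not stable. Of the 34 genes, 17 were also called in wild type mice, all in the same direction, and 31 had the same sign there.

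Among the called genes, the largest log2 fold changes between FKO and MKO livers were those of *Cyp2c69* and *Cyp2c40*, neighbouring cytochrome P450 genes on chromosome 19. *Cyp2c68*, beside them, was also called, with a smaller difference. Cyp2c enzymes of the liver oxidise arachidonic acid, steroids and drugs, and several of them are sex-biased in mice. On GRCm38, *Cyp2c68* lies at chr19:39688834-39741054, *Cyp2c40* at chr19:39767071-39812814 and *Cyp2c69* at chr19:39842814-39886799, all on the minus strand. The 250 bases before their RefSeq start sites (GRCm38.p6) are shown because the 3 genes moved together, with capitals marking the letters CAAAGTCCA, a motif bound by the hepatocyte factor HNF4A.
Cyp2c40, chr19:39812815-39813064, minus strand: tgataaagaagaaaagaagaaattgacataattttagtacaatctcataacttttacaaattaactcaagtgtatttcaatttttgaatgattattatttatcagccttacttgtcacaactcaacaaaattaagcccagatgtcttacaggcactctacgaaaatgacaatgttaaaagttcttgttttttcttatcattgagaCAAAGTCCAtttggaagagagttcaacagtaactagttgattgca
Cyp2c69, chr19:39886770-39887019, minus strand: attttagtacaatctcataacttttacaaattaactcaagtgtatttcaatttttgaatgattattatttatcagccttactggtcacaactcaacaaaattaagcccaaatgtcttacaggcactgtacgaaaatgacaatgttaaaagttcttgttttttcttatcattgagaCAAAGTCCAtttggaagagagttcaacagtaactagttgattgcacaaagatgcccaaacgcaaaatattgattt
Cyp2c68, chr19:39741102-39741351, minus strand: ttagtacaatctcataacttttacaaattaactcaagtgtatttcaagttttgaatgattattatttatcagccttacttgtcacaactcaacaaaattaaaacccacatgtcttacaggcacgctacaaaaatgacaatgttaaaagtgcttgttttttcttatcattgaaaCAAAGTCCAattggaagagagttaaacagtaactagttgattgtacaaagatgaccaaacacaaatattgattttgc

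The windows are nearly the same sequence. Aligned, *Cyp2c40* and *Cyp2c69* were identical at 98.6% of 220 positions, *Cyp2c40* and *Cyp2c68* at 95.0% of 218, and *Cyp2c68* and *Cyp2c69* at 93.5% of 248. CAAAGTCCA stands between 45 and 37 bases before the *Cyp2c40* start, 75 and 67 before that of *Cyp2c69*, and 77 and 69 before that of *Cyp2c68*. On either strand it is in 0.384% of the 32851 windows of this length. Among the 30 windows of the 22 called genes with a window it is in 4, the last being that of *Slfn2*.

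*Cyp2c40* read 275, 110, 155, 267 and 248 CPM in the FKO mice and 6.36, 12.6, 2.68 and 6.74 CPM in the MKO mice. The lowest FKO mouse was thus far above the highest MKO mouse, and the means were 211 ± 74.3 (SD, n = 5) and 7.10 ± 4.10 CPM (SD, n = 4). The log2 fold change was 4.90 ± 0.39 (SE; edgeR adjusted p = 2.15e-06). In wild type mice it was 4.99 ± 0.45, with 317 ± 9.21 CPM in females and 9.96 ± 1.22 CPM in males (SD, n = 3 each). The difference between the genotypes was 0.09 smaller in knockout mice on the log2 scale and did not pass the test (interaction adjusted p = 0.955).

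*Cyp2c69* showed the widest gap of all autosomal genes called. It read 189, 48.0, 58.7, 163 and 205 CPM in FKO and 1.84, 4.11, 0.801 and 2.01 CPM in MKO. FKO2 and FKO3 were the low females and MKO2 was the high male, and the same mice took those places for *Cyp2c40*. The log2 fold change was 5.94 ± 0.54 (edgeR adjusted p = 1.39e-05) against 7.39 ± 0.66 in wild type (interaction adjusted p = 0.35).

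*Cyp2c68* was abundant in both sexes and differed less. It read 538, 348, 279, 361 and 378 CPM in FKO and 133, 179, 110 and 139 CPM in MKO, and the sexes differed by 1.44 ± 0.18 on the log2 scale (edgeR adjusted p = 0.00071). In wild type mice the means were 401 ± 24.3 CPM in females and 143 ± 31.1 CPM in males, so both sexes had close to the same level with and without ESR1 (log2 fold change 1.49 ± 0.22, interaction adjusted p = 0.957). For these genes the sources used here do not say how reads that map to several copies were counted. Of the 50-base stretches in their transcripts, 60.3% in *Cyp2c40*, 54.3% in *Cyp2c69* and 43.3% in *Cyp2c68* also occur in another gene, mostly in each other or in *Cyp2c67*, so the split of reads among the copies is uncertain.

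The wider Cyp2c family followed in part. Of 14 autosomal members tested, these 3 were called, all higher in FKO, and 11 had a log2 fold change above 0, with a list median of 0.54 beside 0.01 over all autosomal genes. Over all autosomal genes, 0.199% were called and 51.5% were above 0. *Cyp2c67*, next to *Cyp2c68*, was named after its values were seen: it read 249 CPM on average in FKO and 194 in MKO (log2 fold change 0.36, adjusted p = 0.26), and 140 and 234 CPM in wild type females and males. Its interaction passed the threshold (adjusted p = 0.030).

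**Figure D1:**
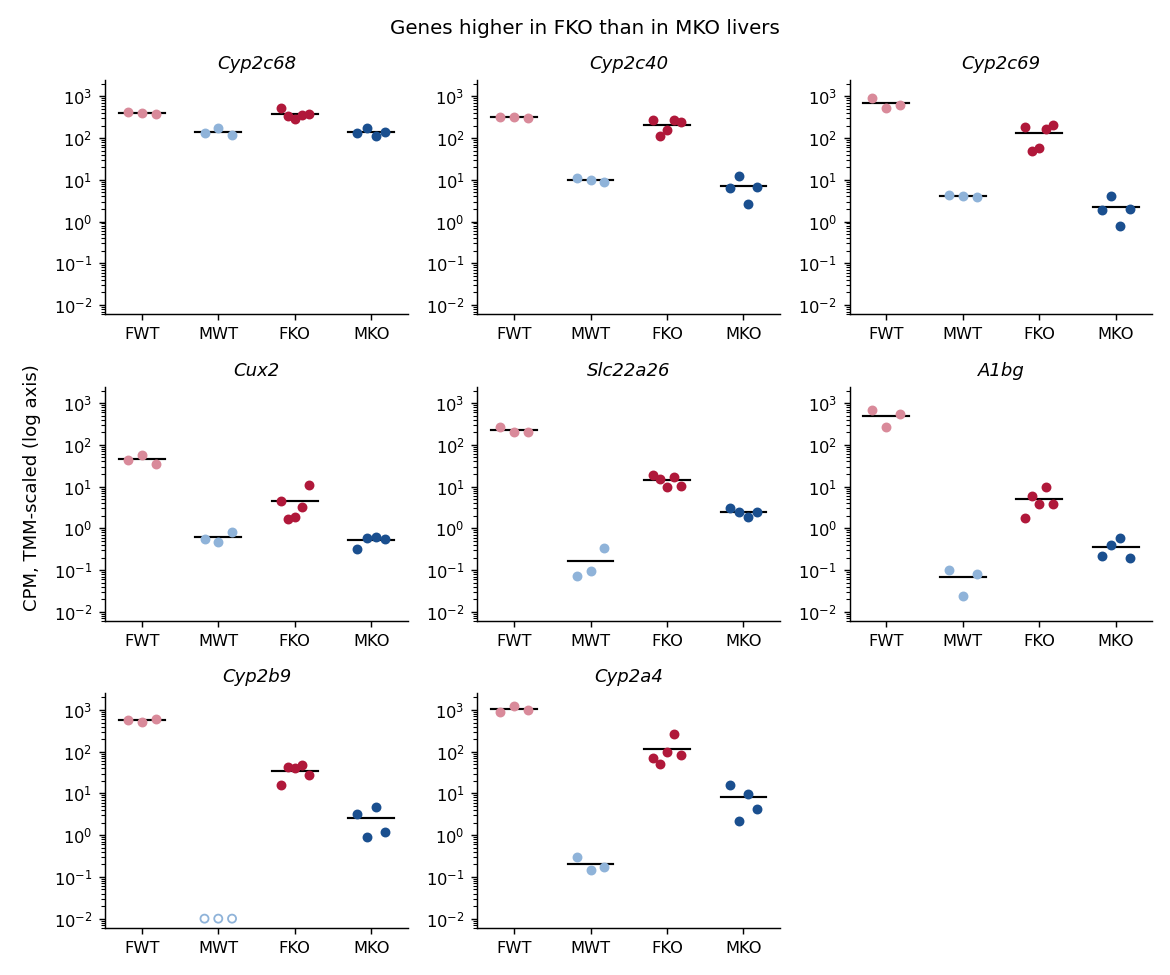
CPM per mouse (log axis) of 8 genes that were higher in FKO than in MKO livers, in all 4 groups; each point is 1 mouse, black lines are group means, and open circles at the bottom stand for 0 counts. In the top row, *Cyp2c68* and *Cyp2c40* keep about the wild type gap in the knockout mice and *Cyp2c69* has a narrower one; in the other 5 genes the FKO mice lie far below the wild type females.

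A second set of genes kept a female bias that was a small part of the wild type one. It held further female-specific genes of steroid, drug and metabolite handling, *Cyp2b9*, *Cyp2a4*, *Slc22a26* and *A1bg*. For each of these 4, FKO mice were between the wild type females and the MKO mice, and the MKO mice were above the wild type males on average. The interaction passed the threshold for all 4.

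*Cyp2b9* encodes a cytochrome P450 that oxidises steroids. It read 15.8, 44.1, 40.3, 49.0 and 27.6 CPM in FKO and 3.22, 0.910, 4.77 and 1.22 CPM in MKO (log2 fold change 3.82 ± 0.45, edgeR adjusted p = 0.00071). Every FKO mouse was above every MKO mouse and far below the wild type females, which averaged 565 ± 44.1 CPM. Wild type males had no counts, which puts their level under 0.0208 CPM (3 counts over the group) and the wild type difference at least 27200-fold higher in females. The ratio of means in the knockout mice was 13.97 (interaction adjusted p = 2.01e-05).

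*Cyp2a4*, near *Cyp2b9* on chromosome 7 (chr7:26307169-26315088, plus strand), is a steroid hydroxylase. It read 70.7, 51.6, 98.6, 259 and 84.6 CPM in FKO and 16.1, 2.22, 9.60 and 4.35 CPM in MKO (log2 fold change 3.83 ± 0.54, edgeR adjusted p = 0.00241). FKO4 stood above the other females, and the groups did not overlap. Wild type females averaged 1052 CPM and wild type males 0.206 CPM (interaction adjusted p = 6.61e-05). The gene shares 38.0% of its 50-base stretches with other genes, chiefly *Cyp2a5*, which had 623 CPM in FKO and 841 CPM in MKO (adjusted p = 0.54), so part of its reads may belong to a copy.

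*Fmo2*, which encodes a flavin monooxygenase, averaged 29.2 ± 4.99 CPM in FKO and 18.7 ± 4.004 CPM in MKO without overlap but did not pass the test (edgeR adjusted p = 0.149).

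*A1bg*, a plasma glycoprotein of the immunoglobulin superfamily, and *Slc22a26*, an organic anion carrier, had the same order of groups. Their 250 bases before the start site are shown because they are the called genes whose windows hold TTCNNNGAA, the motif of STAT5, the growth hormone effector. The capitals mark that motif and, in *Slc22a26*, also GAAANNGAAA, the interferon-stimulated response element (ISRE).
A1bg, chr15:60921271-60921520, minus strand: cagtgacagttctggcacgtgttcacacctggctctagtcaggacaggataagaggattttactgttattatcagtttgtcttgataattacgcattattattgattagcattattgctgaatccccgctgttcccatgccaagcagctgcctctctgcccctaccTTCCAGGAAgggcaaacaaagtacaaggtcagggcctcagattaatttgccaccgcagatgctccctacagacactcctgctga
Slc22a26, chr19:7802668-7802917, minus strand: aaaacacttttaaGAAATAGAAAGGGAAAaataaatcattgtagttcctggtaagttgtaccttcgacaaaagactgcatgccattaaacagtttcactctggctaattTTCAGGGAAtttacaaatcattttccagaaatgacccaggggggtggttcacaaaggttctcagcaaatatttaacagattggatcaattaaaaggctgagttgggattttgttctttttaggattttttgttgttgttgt

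TTCNNNGAA, read on both strands, is in 7.02% of all windows and in 2 of the 30 windows of the 22 called genes with a window. The full estrogen response element GGTCANNNTGACC is in 0.0639% of all windows and in that of no called gene. Its single arm GGTCA is in 35.2% of all windows and in 13 of the 30 windows of called genes, from 12 genes. ATCGAT, the motif of CUX2, is in 0.728% of all windows and, among the called genes, in 1 of the 2 windows of *Cux2* itself.

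*A1bg* read 1.80, 5.96, 3.75, 9.94 and 3.77 CPM in FKO and 0.217, 0.397, 0.592 and 0.199 CPM in MKO (log2 fold change 3.81 ± 0.51, edgeR adjusted p = 0.00147). *Slc22a26* read 19.2, 15.2, 9.85, 16.6 and 10.4 CPM in FKO and 3.14, 2.40, 1.83 and 2.41 CPM in MKO (log2 fold change 2.56 ± 0.24, edgeR adjusted p = 1.96e-05). The wild type females averaged 503 ± 219 CPM for *A1bg* and 226 ± 40.3 CPM for *Slc22a26*, above every FKO mouse. The interaction adjusted p was 6.85e-05 for *A1bg* and 1.15e-07 for *Slc22a26*.

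*Cux2* encodes a homeobox transcription factor made in female mouse liver, where it represses male-biased genes and activates female-biased ones. It read 4.53, 1.71, 1.88, 3.29 and 10.8 CPM in FKO and 0.325, 0.583, 0.610 and 0.559 CPM in MKO. The FKO mice varied widely among themselves, with FKO5 highest, and none overlapped the MKO mice (log2 fold change 3.07 ± 0.50, edgeR adjusted p = 0.0099). Wild type females averaged 45.5 ± 11.4 CPM and wild type males 0.624 ± 0.194 CPM, and the interaction did not pass (adjusted p = 0.0523). Without MKO1 or without MKO4 the adjusted p of *Cux2* rose to as much as 0.0546, and it was 0.0516 when only the knockout mice were fitted.

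**Figure D2:**
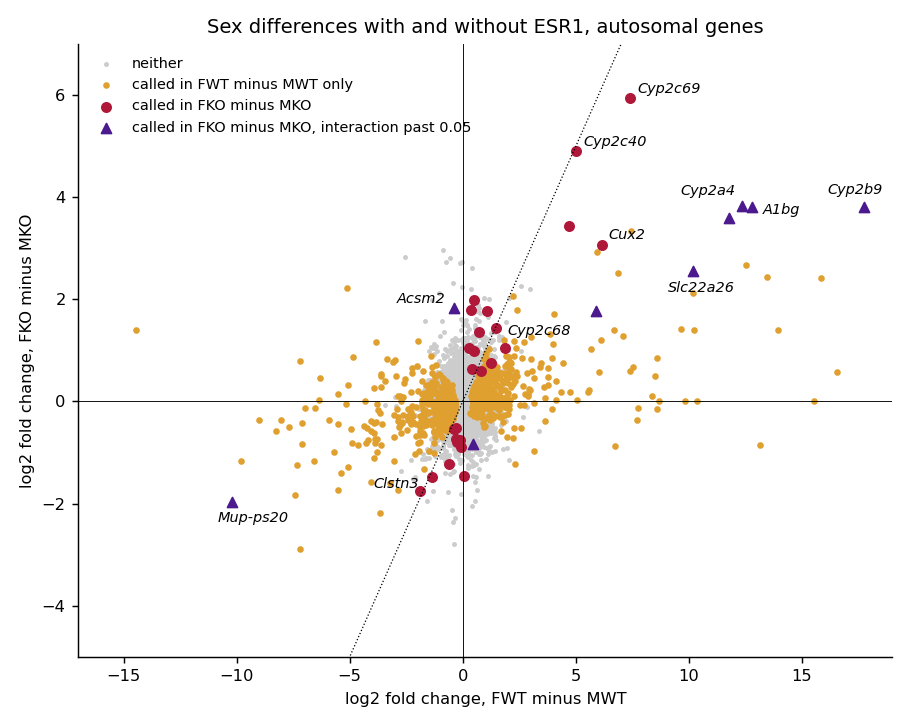
Log2 fold change of females over males in wild type livers (x axis) against knockout livers (y axis) for 17117 autosomal genes; the dotted line marks equal differences, and fitted values of genes with almost no counts in a group depend on the prior count. Red points and purple triangles are the 34 genes called in knockout mice; *Cyp2c40* and *Cyp2c68* lie on the line, and the triangles, where the interaction passed, include female-biased genes far to the right and *Mup-ps20* far to the left.

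The 12 genes called higher in MKO, apart from a pair of pseudogenes, differed by a log2 fold change under 1.5 in size. *Mup-ps20* and *Mup-ps7* are pseudogenes in the cluster of major urinary protein genes on chromosome 4. These genes encode pheromone-binding proteins that male liver secretes in large amounts. Of the 12 genes higher in MKO, 6 lie on chromosome 4, which holds 6.05% of the autosomal genes tested.

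*Mup-ps20* (chr4:62012412-62014857) read 1.57, 1.85, 1.22, 1.22 and 0.936 CPM in FKO and 6.36, 5.11, 3.64 and 6.04 CPM in MKO. The MKO mice were all higher (log2 fold change -1.97 ± 0.28, edgeR adjusted p = 0.0026). Wild type males averaged 27.3 ± 12.4 CPM, while the 3 wild type females had 3 counts in all. The sex difference was smaller in the knockout mice (interaction adjusted p = 3.42e-06).

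*Mup-ps7* read 0.455, 0.524, 0.287, 0.744 and 0.543 CPM in FKO and 1.52, 0.933, 2.91 and 1.53 CPM in MKO (log2 fold change -1.75 ± 0.31, edgeR adjusted p = 0.0212). Its wild type difference of -1.89 ± 0.38 was close to this (interaction adjusted p = 0.922). The groups did not overlap, but 80.4% of its 50-base stretches occur in other Mup pseudogenes, so its own level is uncertain.

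No protein-coding Mup gene was called in the main edgeR fit. The list of major urinary proteins had 22 members tested, 19 of them below 0, with a median of -0.46 in the knockout mice and -3.79 in wild type mice, where 18 were called as male-biased. *Mup14*, named after its values were seen, read 81.4, 39.02, 24.3, 55.7 and 27.7 CPM in FKO and 90.3, 98.5, 128 and 93.8 CPM in MKO (adjusted p = 0.090). With DESeq2's Wald test its adjusted p was 0.0062. In wild type males *Mup14* averaged 512 CPM and in wild type females 0.570 CPM.

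*Clstn3*, which encodes the membrane protein calsyntenin, was higher in MKO. It read 4.91, 8.16, 8.91, 14.4 and 7.47 CPM in FKO and 23.4, 17.0, 39.7 and 17.7 CPM in MKO, without overlap. The log2 fold change was -1.48 ± 0.28 (edgeR adjusted p = 0.0323) and resembled the -1.38 ± 0.37 of wild type mice, where females averaged 2.20 CPM and males 5.79 CPM (interaction adjusted p = 0.948). Without MKO3, the highest mouse, the call was lost, as it was without FKO1, FKO2 or MKO1. Named after their values were seen, the fat cell genes *Cfd* and *Cidec* were also highest in MKO3, at 9.32 CPM (0.891 to 1.95 CPM in the other MKO mice) and 10.05 CPM (2.19 to 3.64 CPM). The part of this in the difference was not tested.

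The remaining named genes higher in MKO differed by less. *Pgd*, phosphogluconate dehydrogenase of the pentose phosphate pathway, read 16.8, 21.6, 32.2, 18.7 and 20.8 CPM in FKO and 49.3, 35.7, 40.8 and 37.9 CPM in MKO (log2 fold change -0.89 ± 0.16, edgeR adjusted p = 0.023). In wild type livers both sexes were at the FKO level, with 23.9 ± 4.23 CPM in females and 25.3 ± 1.46 CPM in males. *Mospd3*, a membrane protein with a motile sperm domain, had means of 1.87 ± 0.663 CPM in FKO and 4.40 ± 0.830 CPM in MKO (log2 fold change -1.22 ± 0.22, edgeR adjusted p = 0.021). *Zfp608* (a zinc finger protein), *Arsb* (the lysosomal arylsulfatase B), *Nudt18* (a nudix hydrolase), *Mob3b* (a kinase activator) and *Ido2* (an enzyme of tryptophan breakdown) had log2 fold changes from -0.80 to -0.52. None of these 7 genes was called in wild type mice.

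*Gpr153*, an orphan receptor, was named after its values were seen because its wild type values went the other way. It read 0.546 to 0.800 CPM in FKO and 1.11 to 1.45 CPM in MKO, but 1.22 to 1.35 CPM in wild type females and 0.809 to 1.09 CPM in wild type males. The log2 fold change was -0.84 ± 0.16 in knockout mice (edgeR adjusted p = 0.0355) and 0.45 ± 0.19 in wild type mice (adjusted p = 0.229), and the interaction passed (adjusted p = 0.00945).

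**Figure D3:**
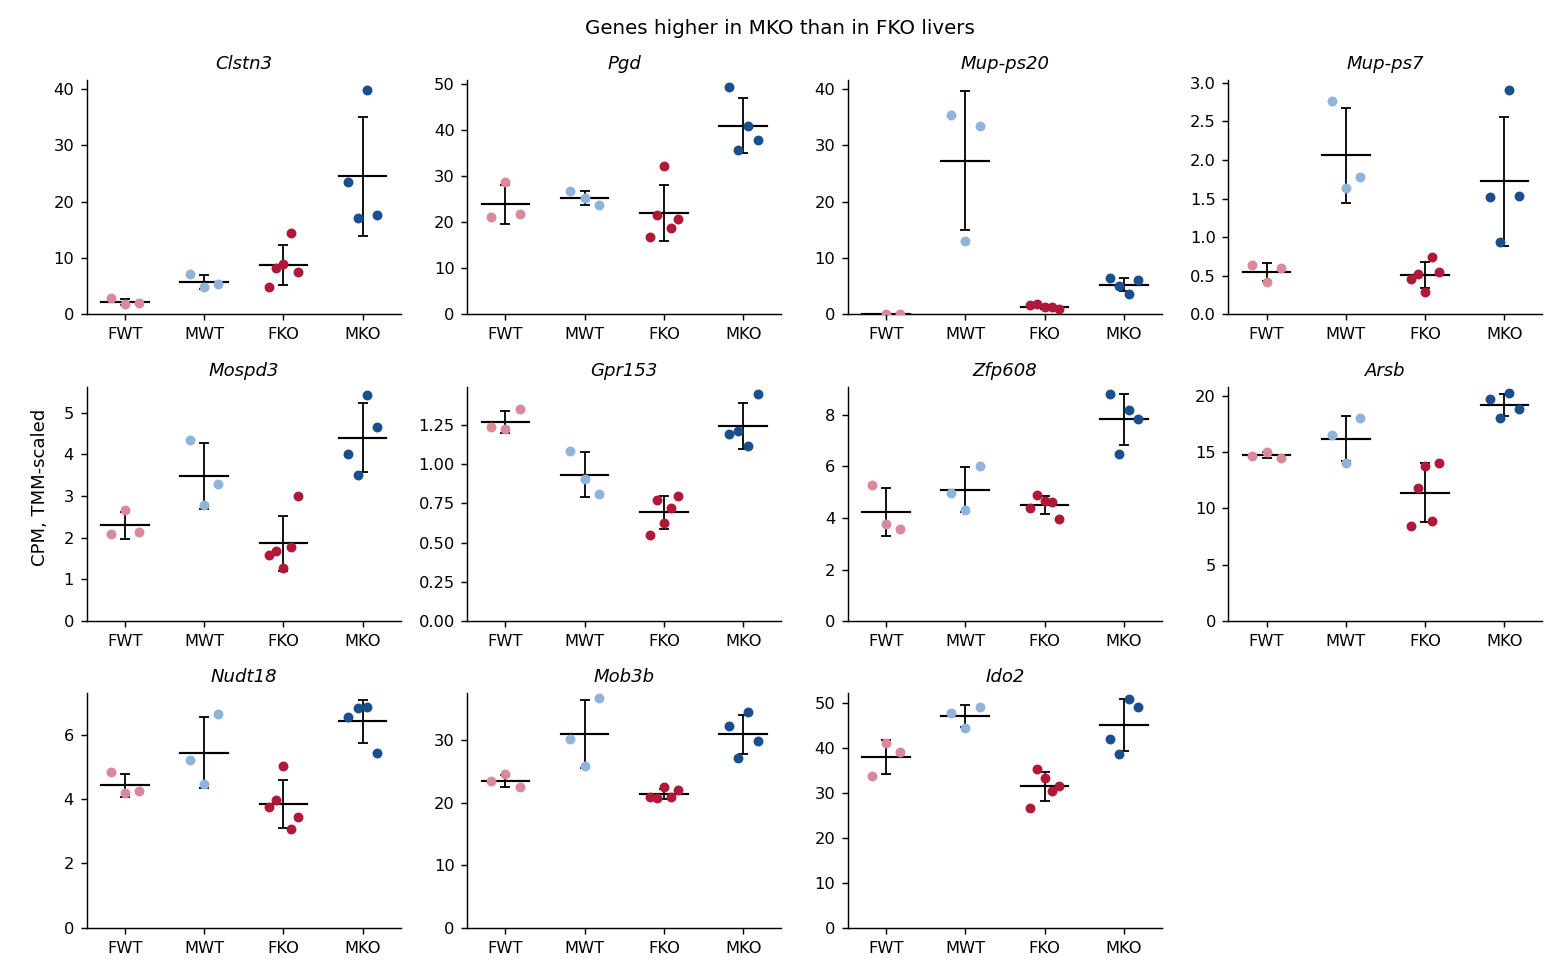
CPM per mouse of 11 genes that were higher in MKO than in FKO livers, in all 4 groups; each point is 1 mouse, and black lines and bars are the mean and SD of the group. In every panel the 4 MKO mice lie above the 5 FKO mice. The MKO mice also lie above every wild type male in *Clstn3*, *Pgd*, *Zfp608*, *Gpr153* and, only just, *Arsb*.

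A few genes of the interferon response were called higher in FKO livers. Targets of interferons include guanylate-binding proteins (GBPs) and IFIT proteins, which restrict pathogens inside cells. The called genes of this kind were *Gbp3*, *Gbp6*, *Gbp2b*, *Ifit1bl1* and *Slfn2*, of which *Gbp3*, *Gbp6* and *Ifit1bl1* belong to the list of interferon-stimulated genes used here. *Gbp3* and *Gbp2b* lie together on chromosome 3. The 250 bases before the start of 3 of these genes are shown because each holds GAAANNGAAA, the ISRE, marked in capitals as it reads on this strand or on the other.
Gbp3, chr3:142559794-142560043, plus strand: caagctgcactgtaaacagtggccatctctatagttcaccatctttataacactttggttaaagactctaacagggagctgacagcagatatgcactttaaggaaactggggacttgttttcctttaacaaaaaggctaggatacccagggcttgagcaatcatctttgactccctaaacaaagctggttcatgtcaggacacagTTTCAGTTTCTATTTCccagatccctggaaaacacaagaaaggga
Gbp2b, chr3:142594597-142594846, plus strand: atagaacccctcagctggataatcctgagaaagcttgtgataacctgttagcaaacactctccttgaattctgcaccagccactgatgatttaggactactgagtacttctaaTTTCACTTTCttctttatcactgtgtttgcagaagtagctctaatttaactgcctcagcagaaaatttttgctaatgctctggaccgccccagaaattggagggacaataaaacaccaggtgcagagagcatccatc
Ifit1bl1, chr19:34601969-34602218, minus strand: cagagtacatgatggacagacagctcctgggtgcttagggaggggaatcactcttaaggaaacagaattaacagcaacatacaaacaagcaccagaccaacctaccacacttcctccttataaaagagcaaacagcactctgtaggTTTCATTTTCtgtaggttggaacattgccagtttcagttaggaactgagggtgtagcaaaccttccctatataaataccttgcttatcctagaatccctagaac

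GAAANNGAAA is in 2.98% of all windows and in 5 of the 30 windows of the 22 called genes with a window. These come from 4 genes, the 3 shown and *Slc22a26*. *Gbp3* holds 2 overlapping matches.

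*Gbp3* read 15.1, 15.3, 16.4, 16.2 and 15.8 CPM in FKO and 10.5, 10.01, 7.85 and 8.94 CPM in MKO, a narrow spread in each sex (log2 fold change 0.76 ± 0.15, edgeR adjusted p = 0.0438). It was called in wild type mice too, with 27.2 ± 4.35 CPM in females and 11.3 ± 3.69 CPM in males (interaction adjusted p = 0.336). *Gbp2b* read 7.82, 3.89, 8.60, 6.22 and 6.20 CPM in FKO and 3.40, 2.94, 2.98 and 3.39 CPM in MKO (log2 fold change 1.04 ± 0.19, edgeR adjusted p = 0.0283). Its wild type sexes were close, at 3.98 ± 0.820 and 3.32 ± 0.527 CPM.

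*Ifit1bl1* averaged 0.832 ± 0.234 CPM in FKO and 0.233 ± 0.132 CPM in MKO (log2 fold change 1.78 ± 0.33, edgeR adjusted p = 0.0277). *Gbp6* averaged 7.02 ± 1.04 CPM and 3.58 ± 0.653 CPM (edgeR adjusted p = 0.0408), and 70.7% of its 50-base stretches occur in other GBP genes. *Slfn2*, a schlafen protein of immune cells, averaged 6.06 ± 0.480 CPM and 3.90 ± 0.419 CPM (edgeR adjusted p = 0.0419). Each of these 5 calls was lost when some single knockout mice were left out, and *Gbp3* lost it without any of 8 of the 9. Adjusted over autosomal genes alone, *Gbp3*, *Gbp6* and *Slfn2* were not called.

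Most other members of the list also lay above 0 without passing the test. Of 44 interferon-stimulated genes tested, 3 were called and 43 had a log2 fold change above 0, with a median of 0.50 in knockout and 0.52 in wild type mice. Over all autosomal genes 0.199% were called, 51.5% were above 0 and the medians were 0.01 in both genotypes. The summed level of the list was 1410 to 1591 CPM in FKO and 903 to 1245 CPM in MKO, and 17 members had all FKO mice above all MKO mice, as had 428 of the 17117 autosomal genes tested (5.13% did not overlap in either direction). The number above 0 was 43 under both other scalings and 40 to 44 when 1 knockout mouse was left out.

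Macrophage markers also lay above 0. Of 13 autosomal markers of Kupffer cells and macrophages, 12 were above 0, with a median of 0.41. In the main edgeR fit 10 had an unadjusted p under 0.05, but none passed the adjusted threshold. With DESeq2's Wald test *Adgre1*, named after its values were seen, had an adjusted p of 0.00391. The summed level of these markers with the X-linked *Vsig4* was 580 to 747 CPM in FKO and 486 to 620 CPM in MKO, and every marker had counts. In bulk liver, more cells of a type and more RNA per cell cannot be told apart, and their part in the interferon genes was not tested. Lymphocyte markers summed to 12.5 to 17.2 CPM in FKO and 15.4 to 25.2 CPM in MKO, with 12 of 15 above 0 and none called. Much of the sum was *Ighm*, an immunoglobulin gene named after its values were seen. It averaged 6.33 ± 2.05 CPM in FKO and 13.2 ± 3.74 CPM in MKO, without overlap (log2 fold change -1.08 ± 0.23, edgeR adjusted p = 0.0604). With DESeq2's Wald test its adjusted p was 0.00139. *Cxcl13*, a chemokine for B cells, was called higher in FKO at 0.997 ± 0.316 CPM and 0.401 ± 0.0906 CPM (log2 fold change 1.36 ± 0.25, edgeR adjusted p = 0.0291).

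**Figure D4:**
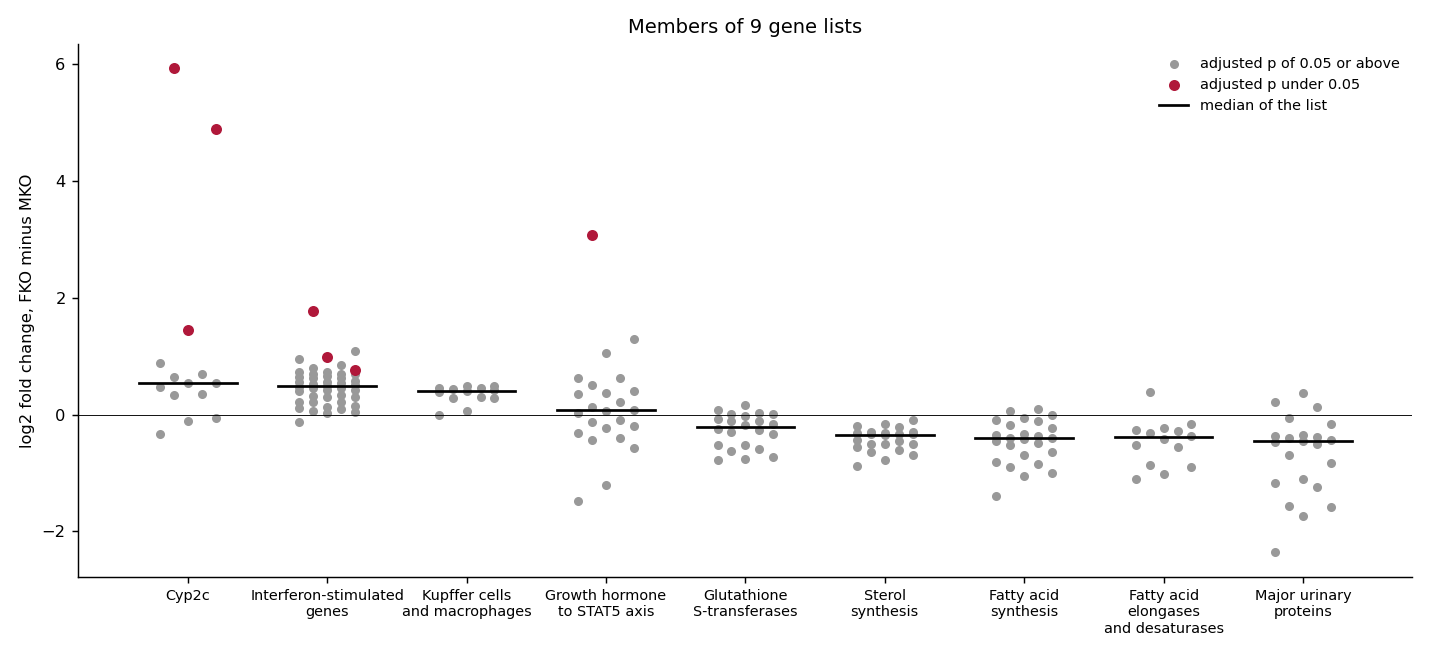
Log2 fold change of FKO over MKO for the autosomal members of 9 gene lists; each point is 1 gene, red points passed an adjusted p of 0.05, and the black line is the list's median. The interferon-stimulated genes and macrophage markers lie above 0 almost throughout, and all 23 sterol synthesis genes lie below it.

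The rest of the calls had no common family. *Acsm2*, a mitochondrial acyl-CoA synthetase for medium-chain fatty acids, read 3.82, 2.01, 2.32, 3.04 and 5.13 CPM in FKO and 0.470, 1.17, 0.453 and 1.49 CPM in MKO. The MKO mice stood apart from all others, since wild type females averaged 3.02 CPM and wild type males 3.91 CPM. The log2 fold change was 1.82 ± 0.35 (edgeR adjusted p = 0.0355), and the interaction passed (adjusted p = 0.0339). *Trpm6*, a magnesium channel, and *Piezo2*, a mechanosensitive channel, were higher in FKO by log2 fold changes of 1.05 ± 0.19 and 0.60 ± 0.12 and were called in wild type mice in the same direction. *Cxcl13*, *Trpm6* and *Piezo2* were named after their values were seen.

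A pair of called genes are small nucleolar RNAs, a class that guides the modification of ribosomal RNA. The one on chromosome 10 read 54.0, 17.2, 16.6, 27.6 and 10.5 CPM in FKO and 5.57, 8.19, 7.44 and 4.10 CPM in MKO. The one on chromosome 8 read 5.75, 2.29, 2.42, 4.36 and 1.43 CPM in FKO and 0.506, 1.40, 1.06 and 0.718 CPM in MKO. FKO1 and FKO4 were the high mice for both. Over all 122 small nucleolar RNAs tested, 101 were above 0 with a median of 0.45. FKO1 and FKO4 also stood apart in mitochondrial ribosomal RNA, at 8.01% and 0.439% of reads, with 2.91% to 4.77% in the other knockout mice, and the part of such differences between libraries was not tested.

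Most genes known for sex bias in wild type liver did not pass the test between FKO and MKO. Of the male-biased genes of a panel of known sex-biased genes, *Cyp7b1* (an oxysterol hydroxylase) averaged 104 ± 32.1 CPM in FKO and 108 ± 31.9 CPM in MKO, with 52.9 CPM in wild type females and 722 CPM in wild type males. *Hsd3b5*, a steroid-metabolising enzyme, averaged 249 ± 46.4 CPM in FKO and 189 ± 54.1 CPM in MKO, with 40.4 and 440 CPM in wild type females and males. The knockout sexes overlapped for both, at levels between those of the wild type sexes, and the interaction adjusted p was 1.49e-05 for *Cyp7b1* and 3.35e-05 for *Hsd3b5*. Of the 50-base stretches of *Hsd3b5*, 21.2% occur in other genes, so part of its reads may belong to a copy.

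*Gstp1*, a glutathione S-transferase, came closest to a call among the male-biased genes of the panel. It read 359, 295, 359, 363 and 520 CPM in FKO and 591, 621, 550 and 756 CPM in MKO, without overlap (log2 fold change -0.73 ± 0.16, edgeR adjusted p = 0.0612), and wild type males averaged 1502 CPM. Of its 50-base stretches, 33.7% occur in other genes, chiefly *Gstp2*, so part of its reads may belong to a copy. *Elovl3*, a fatty acid elongase, averaged 50.8 ± 20.3 CPM and 92.1 ± 39.7 CPM (adjusted p = 0.244). No male-biased gene of the panel was called in the knockout mice in the main edgeR fit. With DESeq2's Wald test the adjusted p was 0.00139 for *Gstp1*, 0.259 for *Elovl3*, 0.385 for *Hsd3b5* and 0.903 for *Cyp7b1*.

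Of the female-biased genes of the panel outside the calls, *Cyp2b13* and *Aldh3b3* were low in both knockout sexes. *Cyp2b13* had 15 counts over the FKO mice and 2 over the MKO mice, against 152 CPM on average in wild type females. *Aldh3b3*, an aldehyde dehydrogenase, averaged 0.313 ± 0.183 CPM in FKO and 0.140 ± 0.0618 CPM in MKO, with 4.91 CPM in wild type females. *Trim24* and *Tox*, regulators of transcription, averaged 36.2 and 5.91 CPM in FKO and 22.3 and 6.51 CPM in MKO (edgeR adjusted p = 0.082 and 0.701). With DESeq2's Wald test the adjusted p was 0.00963 for *Trim24* and 0.695 for *Tox*. Both had an interaction past the threshold (adjusted p = 0.0251 and 0.000387).

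The genes that carry the growth hormone signal showed no call apart from *Cux2* in the main edgeR fit. Of 24 genes of this axis tested, 14 were above 0, with a median of 0.07. Without adjustment, 10 of them had p under 0.05 in this fit, 5 higher in FKO and 5 higher in MKO. The same held for 17.5% of all autosomal genes. *Bcl6*, a repressor that growth hormone controls, varied widely, with 15.7, 4.61, 10.8, 6.55 and 35.4 CPM in FKO and 37.3, 8.56, 33.9 and 84.8 CPM in MKO (log2 fold change -1.48 ± 0.60, edgeR adjusted p = 0.226). *Igf1*, the growth factor that growth hormone induces, averaged 760 ± 243 CPM in FKO and 495 ± 62.3 CPM in MKO (edgeR adjusted p = 0.131). With DESeq2's Wald test the adjusted p was 0.0317 for *Igf1* and 0.207 for *Bcl6*. *Stat5b*, *Ghr* (the growth hormone receptor) and *Onecut1* had adjusted p of 0.21, 0.71 and 0.698.

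The 824 genes that were sex-biased in wild type livers were followed into the knockout mice, which are different animals from those used to find them. Of 451 female-biased genes, 328 (72.7%) kept their sign in the knockout mice and 14 were called there, with the median log2 fold change going from 1.06 to 0.17. Of 373 male-biased genes, 249 (66.8%) kept their sign and 3 were called, with the median going from -1.20 to -0.14. None was called in the opposite direction. Of the 16293 other autosomal genes, 53.5% had the same sign in both genotypes, 14 were called in that direction and 3 in the opposite one. The share called over all autosomal genes was 0.199%. The interaction passed for 133 of the female-biased and 167 of the male-biased genes. It uses the same wild type mice that picked these genes. These counts and the wild type medians are therefore not independent of that choice, which favours large wild type differences.

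The remaining bias was greatest where the wild type bias was greatest. The 50 female-biased genes with a wild type log2 fold change above 4 had a median of 1.08 in the knockout mice, with 41 in the same direction and 10 called. The 40 male-biased genes beyond the same size had a median of 0.51 in the male direction, with 31 in the same direction and 1 called. The share called was 0.199% over all autosomal genes tested. Female-biased genes with a wild type difference of at most 1 had a median of 0.11, and male-biased ones 0.06. The fitted values of genes with few counts depend on the prior count, so these medians are descriptions only.

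Among the lists of metabolic genes, those of lipid synthesis lay below 0, toward MKO, though none of their members was called in the main edgeR fit. All 23 sterol synthesis genes tested had a log2 fold change below 0, with a median of -0.35 beside 0.12 in wild type mice, and 8 had an unadjusted p under 0.05. The whole list summed to 3320 to 6461 CPM in FKO and 5114 to 7265 CPM in MKO, with overlap. *Dhcr7*, which makes cholesterol from its last precursor, and *Acat2* had the lowest p of this list and were named after their values were seen. *Dhcr7* read 24.4, 39.5, 65.3, 51.7 and 50.5 CPM in FKO and 84.6, 87.7, 75.3 and 95.2 CPM in MKO (adjusted p = 0.073). With DESeq2's Wald test the adjusted p was 0.00328 for *Dhcr7* and 0.0405 for *Acat2*. FKO1 was the lowest mouse for *Dhcr7* and also for *Acat2*.

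Fatty acid synthesis had 23 of 25 members below 0, with a median of -0.40, and elongases and desaturases had 13 of 14, with a median of -0.39. The summed levels overlapped between the sexes. They were 8995 to 26758 CPM in FKO and 22204 to 38807 CPM in MKO for fatty acid synthesis. For elongases and desaturases they were 6232 to 20000 CPM in FKO and 17145 to 26675 CPM in MKO. *Gpam*, the first enzyme of triglyceride synthesis and also named after its values were seen, read 373, 713, 748, 841 and 412 CPM in FKO and 1749, 724, 1191 and 1302 CPM in MKO (adjusted p = 0.094), with MKO2 inside the FKO range. Glutathione S-transferases had 17 of 22 below 0 (median -0.21). UDP-glucuronosyltransferases, which conjugate steroids and bilirubin, had 16 of 19 above 0 (median 0.27). None of the members of these 4 lists was called in the main edgeR fit. With DESeq2's Wald test at least *Gpam* (adjusted p = 0.00663), *Gstp1* (0.00139) and *Gstm4* (0.00535, named after its values were seen) passed.

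**Figure D5:**
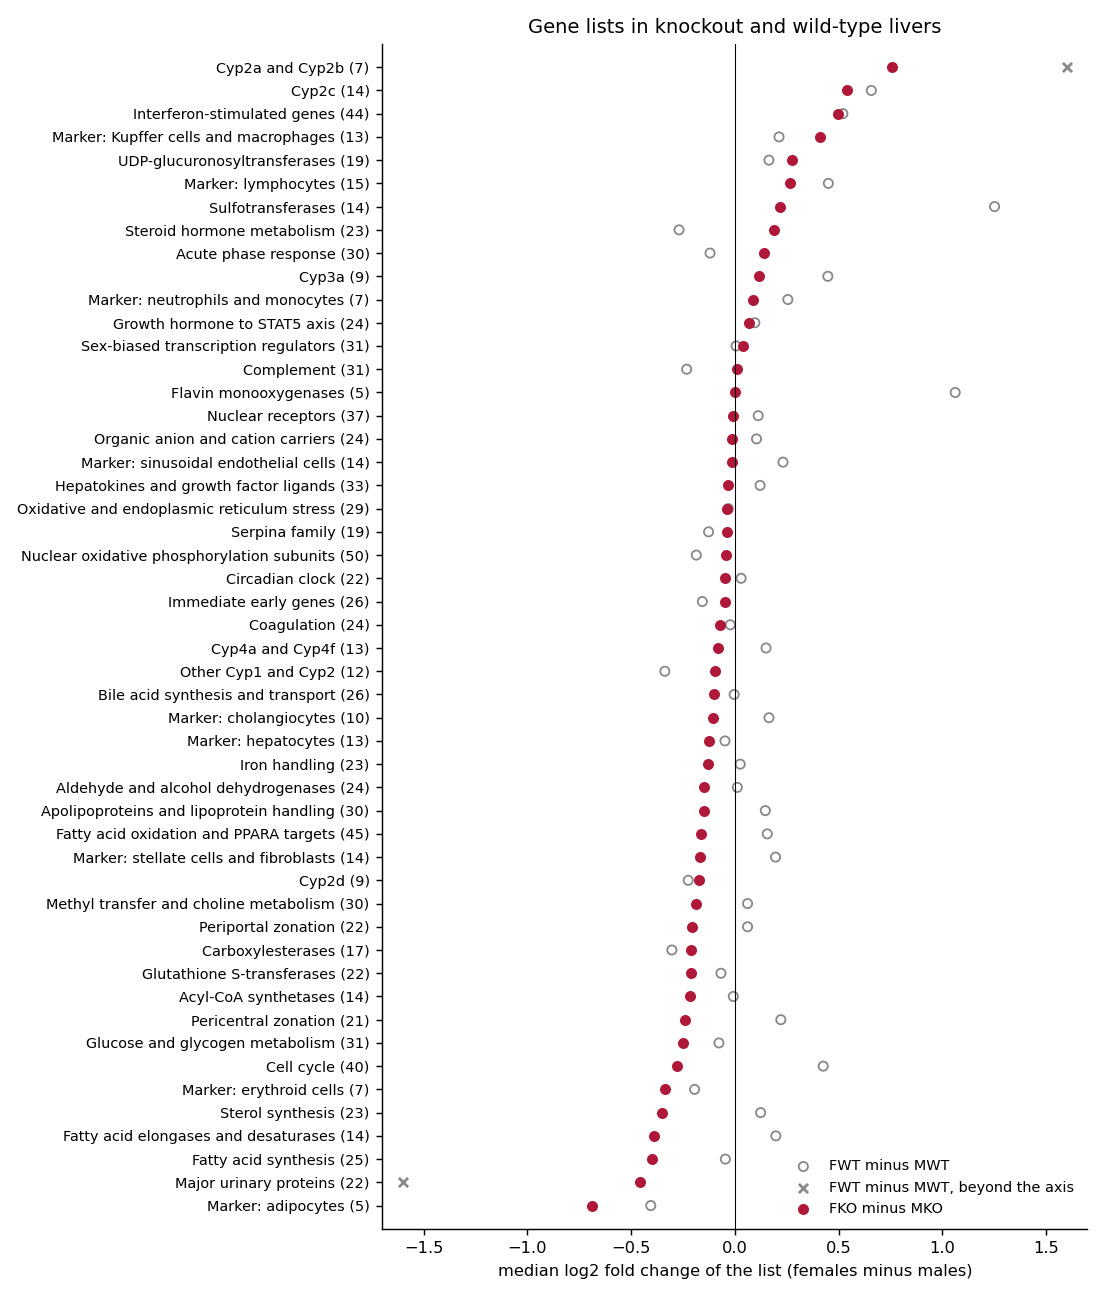
Median log2 fold change of females over males for 50 gene lists with at least 5 autosomal members tested (number in brackets), in knockout (red) and wild type (open) livers; crosses mark wild type medians beyond the axis. The Cyp2a and Cyp2b genes, Cyp2c genes and interferon-stimulated genes stand highest in the knockout mice, and adipocyte markers, major urinary proteins and lipid synthesis lowest.

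Lists with calls were few. The Cyp2a and Cyp2b genes had 2 of 7 called, the Cyp2c genes 3 of 14 and the interferon-stimulated genes 3 of 44. Over all autosomal genes tested, 0.199% were called. Organic ion carriers, acyl-CoA synthetases, growth hormone signalling and sex-biased transcription regulators had 1 called member each, all higher in FKO, and glucose and glycogen metabolism had 1 higher in MKO (*Pgd*). No member of the lists for cell cycle, circadian clock, nuclear receptors, bile acids, complement, coagulation, acute phase response, iron handling or oxidative phosphorylation was called in the main edgeR fit, and no autosomal cell type marker was. At the share over all genes, most lists of this length would hold no call, so this says little about these pathways. With DESeq2's Wald test members of several of these lists passed, such as *Cfd* (complement and adipocytes, adjusted p = 0.0191) and *Mbl2* (complement, 0.0141). *Fgg* (coagulation, 0.0285), *Hjv* (iron handling, 0.0179), *Nr2c1* (nuclear receptors, 0.042), *Sdha* (oxidative phosphorylation, 0.0459) and *Abcc2* (bile acids, 0.0371) also passed. So did the cell type markers *Car3* (0.00179), *Rgs5* (0.00381), *Folr2* (0.0139) and *Acta2* (0.0254). These genes were named after their values were seen.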

How the data were processed

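RNA from 15 mouse livers was sequenced as paired ends after ribosomal RNA depletion, with a further run for samples with few reads. The authors trimmed reads with Trimmomatic (0.36), aligned them to GRCm38 with STAR and deposited HTSeq (0.6.0) raw counts per gene; the tool versions and build come from the submitters' processing notes. Strand setting, annotation release and the handling of reads with several matches are not given in the sources used here. The table held 55573 genes, 33253 of them with at least 1 count, and 27799061 to 78624766 counts per mouse.

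Groups followed the source labels. Genes were kept by filterByExpr, scaled by TMM and fitted over all 15 libraries with 1 mean per group in edgeR (4.0.16, R 4.3.3; quasi-likelihood F test), and p-values were adjusted over all 17655 genes tested. Contrasts were FKO minus MKO, FWT minus MWT and their difference; the first and second share no mouse. CPM values are TMM-scaled and errors are SD over mice or SE of a log2 fold change. The labels name separate mice but give no litters. The script was tested on simulated data. DESeq2 (1.42.0) and other scalings, filters and left-out mice were alternatives. RefSeq windows matched 22 of the 34 called genes.

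The comparison, gene lists and panel were chosen with earlier results of these data known. The genes named were those past the threshold and at the fold minimum of 1.5 on the log2 scale, the 10 with the lowest adjusted p per direction (mean log2 CPM 1 or more), up to 4 called members of each list per direction, and a panel of known sex-biased genes and regulators; other names are given as chosen after their values were seen. Some genes that the rule names are not reported here.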

Additional observations from a re-analysis of the deposited data

Results flagged for a closer look

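Of the called and panel genes reported here, 17 had a sex difference that differed between knockout and wild type livers by edgeR's interaction test. Over all autosomal genes tested, it passed for 330 (1.93%). Among the called genes, the adjusted p was 1.15e-07 for *Slc22a26*, 2.01e-05 for *Cyp2b9*, 6.61e-05 for *Cyp2a4*, 6.85e-05 for *A1bg* and 3.42e-06 for *Mup-ps20*, all with a smaller difference in the knockout mice. It was 0.000121 for *Gm6135*, a lincRNA with the same pattern. It was 0.0339 for *Acsm2* and 0.00945 for *Gpr153*, where the fitted signs were opposite in the genotypes. Among the panel genes that were not called, it was 1.87e-06 for *Gstp1*, 1.49e-05 for *Cyp7b1*, 3.35e-05 for *Hsd3b5*, 0.000387 for *Tox*, 0.000893 for *Aldh3b3*, 0.00202 for *Elovl3*, 0.0157 for *Fmo2*, 0.0251 for *Trim24* and 0.048 for *Cyp2b13*.

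A single mouse stood apart from its group by Dixon's test for 3 genes, out of 96 groups of mice checked, where chance gives about 1 in 20. FKO4 was the lowest FKO mouse for *Piezo2* at 5.42 CPM, and MKO1 the lowest MKO mouse for *Cux2* at 0.325 CPM. MKO3 was the highest MKO mouse for *Elovl3* at 151 CPM.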

How the results depend on the processing

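The 34 called autosomal genes became 430 with DESeq2's Wald test, 285 with no filter on low counts, 56 with total counts as the scale, 22 adjusted over autosomal genes alone and 15 with only the groups compared, and 14 to 94 when 1 mouse was left out. The 16 with a log2 fold change of at least 1.5 became 31 with DESeq2, 57 with no filter and 9 with only the groups compared, and 11 to 24 with 1 mouse left out. With 1 mouse left out, the 824 wild type calls ranged from 511 without MWT1 and 520 without FWT3 to 1049, and the 330 interaction calls from 235 to 374. DESeq2 gave 1182 and 575, and only the groups compared gave 1209 wild type calls. The median log2 fold change over autosomal genes was 0.06 with total counts. The fitted direction turned only where the difference was near 0: the log2 fold change of *Esr1* ran from -0.038 without FKO1 to 0.32 without MKO1, and that of *Cyp7b1* from -0.25 without FKO5 to 0.16 without MKO2, with 0.0028 under total counts and 0.06 without FKO2. The cause was not tested.

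The labels number the mice of each group, but same-numbered FKO and MKO mice did not deviate together (correlations 0.03, 0.04, -0.10 and -0.004), so they share only a number. With the replicate block, 28 genes were called, 16 of them among the 34, and 14 at the fold minimum, with 767 in wild type and 279 for the interaction.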
